A study of Mus musculus with 2 samples.

Results

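The genes described here encode the SNARE proteins, the synaptotagmins and their partners in exocytosis, and their RNA was measured in cells that were sorted by GFP from the embryonic mouse pancreas. They were matched by a rule on gene symbols: the syntaxins (Stx), the SNAP proteins (Snap23, Snap25, Snap29, Snap47 and Snap91), the VAMPs, the syntaxin-binding proteins (Stxbp), Unc13, the RIMs, the complexins (Cplx), Doc2, the synaptotagmins (Syt) and the synaptotagmin-like proteins (Sytl). The rule found 71 of the 23284 symbols in both count files. It uses no levels, but it was set with earlier results of these data known. Snap91 fits the rule by name only, since it encodes a clathrin adaptor and not a SNARE.

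The series holds 2 libraries of 1 group. Both are from NGN3-EGFP embryos at e15.5, of a strain given as mixed, C57BL6, and both are GFP-positive cells sorted out of dissociated pancreata. The labels do not say how the EGFP was placed under Neurog3 control, whether a Neurog3 allele is lost by it, how many embryos were pooled, or whether the samples, called replicates 1 and 2 here, came from separate litters. Every difference between them is therefore the spread of 2 samples, which may be technical, and no treatment or genotype is compared.

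SNARE proteins drive membrane fusion: a VAMP on the vesicle zips together with a syntaxin and a SNAP protein on the target membrane. Proteins of the Stxbp and Unc13 families prepare the syntaxin, RIMs hold granules at the release site, complexins hold the assembled complex in check, and synaptotagmins and Doc2 proteins bind membrane through C2 domains and, in many members, sense calcium. In adult islets this machinery releases insulin and glucagon from dense-core granules. Other SNAREs serve traffic through the endoplasmic reticulum, Golgi and endosomes in every cell.

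The libraries held 12495143 and 12043734 counted reads in replicates 1 and 2. Levels are given in CPM, the reads of a gene relative to the scaled library size, and where genes are compared with each other they are CPM per kb of exon, since a longer transcript yields more reads. The sorted cells carried endocrine transcripts, with 8 of 8 endocrine markers at or above 1 CPM in both libraries, led by Chgb, and a summed level of 10083 and 10033 CPM. Markers of other cells were also detected: 6 of 7 of the duct, led by Krt7, at 674 and 620 CPM in all, 4 of 7 of acini, led by Ctrb1 (1561 and 1192 CPM), and 5 of 7 of mesenchyme, led by Col1a2 (417 and 137 CPM). Of the duct list Cftr had 0 and 0.66 CPM, and of the acinar list Pnlip had no read. The list for neural crest and enteric neurons, which use the same release machinery, had 4 of 10 members detected, at 302 and 134 CPM in all. Most of that sum was Ret, at 226 and 105 CPM, while Prph and Foxd3 had no read in either library and Sox10 was at 0 and 0.41 CPM. Of the endothelial list 0 of 5 members reached 1 CPM in both libraries (15.8 and 0.91 CPM in all; Cdh5 at 15.6 and 0.17 CPM), and of the blood list 2 of 6 did (56.3 and 11.3 CPM, led by Laptm5; no read of Hbb-b1 or Hba-a1).

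Most of the exocytosis genes were transcribed in the sorted cells. Of the 71 genes, 49 reached 1 CPM in both libraries, which is 69.0%, against 45.7% of all symbols. On average over the libraries 20 of them lay at 100 CPM or above, as did 9.99% of all symbols. Their median was 19.0 and 19.4 CPM in replicates 1 and 2. The genes summed to 5910 and 5995 CPM. In a pooled sample a low level cannot tell fewer cells with the transcript from less RNA in each cell.

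Most families were carried by a few of their members. The syntaxins were spread more widely, and Stx16, the highest of them, held 26.8% and 22.7% of their reads per kb of exon in replicates 1 and 2. Per kb of exon the highest of all 71 genes was Syt13, an atypical synaptotagmin that does not bind calcium, at 158 and 258 CPM per kb in replicates 1 and 2. Vamp3 followed at 153 and 131 CPM per kb, then Syt7 at 85.3 and 96.5, Cplx2 at 87.1 and 91.6, and Snap23 at 113 and 61.8 CPM per kb. The ranges of Syt13 and Vamp3 over the 2 libraries did not overlap, whereas those of Syt7, Cplx2 and Snap23 did, so the order among these last genes is not settled by these samples.

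**Figure D1:**
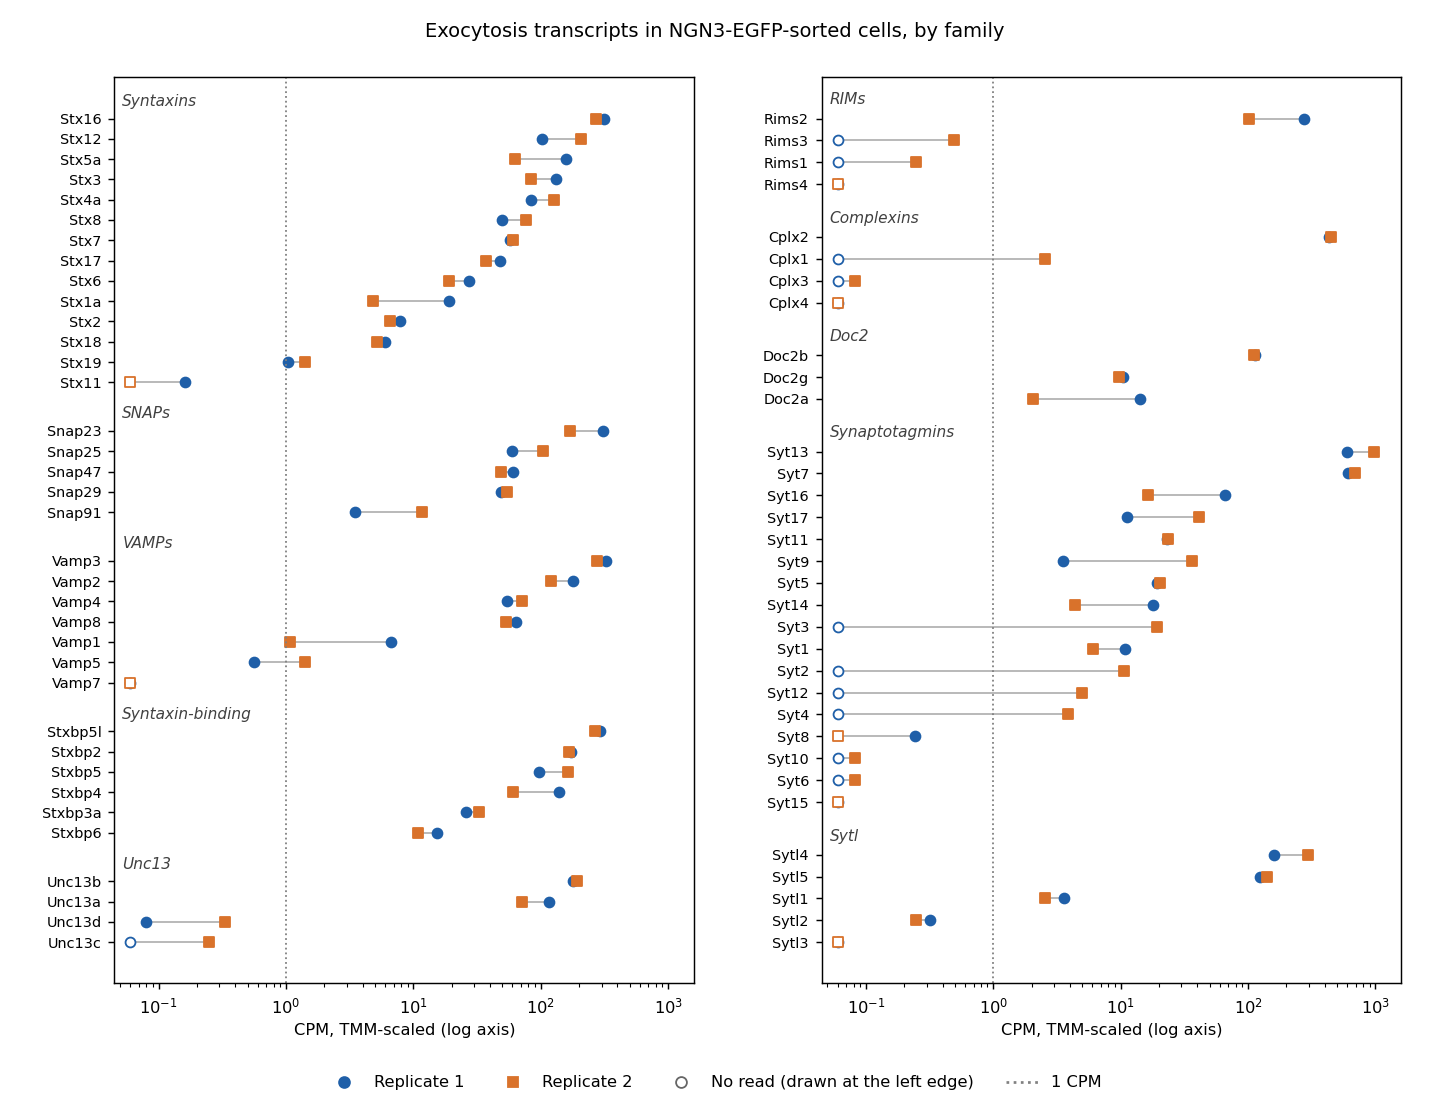
CPM of 69 of the 71 genes on a log axis, grouped by family and ordered by mean within it, with circles for replicate 1 and squares for replicate 2. Open symbols mark genes without a read, and the dotted line marks 1 CPM. In most families a few genes lie above 100 CPM and others at or below 1 CPM, with Syt13 at 595 and 969 CPM the highest by mean.

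Among syntaxins, the SNAREs that receive the vesicle, the internal ones outweighed those of the plasma membrane. All 8 intracellular syntaxins measured reached 1 CPM in both libraries, with a sum of 206 and 200.5 CPM per kb of exon in replicates 1 and 2, whereas 5 of 7 plasma membrane syntaxins did, with a sum of 96.0 and 107 CPM per kb. Stx16, which acts in retrograde traffic to the trans-Golgi, was at 314 and 271 CPM in replicates 1 and 2. Stx12 of recycling endosomes was at 102 and 208 CPM, and Stx5a, which acts between the endoplasmic reticulum and Golgi, at 159 and 62.4 CPM. These last genes lay on opposite sides of the comparison, Stx12 high in replicate 2 and Stx5a high in replicate 1. Stx8 and Stx7 of late endosomes were at mean levels of 62.9 ± 18.7 and 59.0 ± 2.90 CPM (SD, n = 2). Stx17 of autophagosomes was at 42.7 ± 7.63 CPM, Stx6 of the trans-Golgi at 23.3 ± 5.88 CPM and Stx18 of the endoplasmic reticulum, whose exons overlap Nsg1 on the opposite strand, at 5.58 ± 0.52 CPM.

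Stx1a, the plasma membrane syntaxin best known from neurons and beta cells, was low. Replicate 1 had 19.0 CPM (95% interval 16.6 to 21.6, by the exact Clopper-Pearson method) and replicate 2 had 4.79 CPM (3.64 to 6.20). Stx4a and Stx3, plasma membrane syntaxins of many epithelia that also serve granule release in beta cells, were at 84.4 and 128 CPM and at 132 and 83.5 CPM. Stx4a exceeded Stx1a per kb of exon by 6.25-fold and 37.5-fold in replicates 1 and 2, and Stx3 was 3.34-fold and 8.33-fold above it. Both orders were thus the same in each library, although the size of the ratio was not. Stx2 was at 7.80 and 6.53 CPM and Stx19 at 1.04 and 1.41 CPM. Stx11, known from cytotoxic lymphocytes, had 2 and 0 reads.

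Of the SNAP proteins, the SNAREs that give fusion complexes a pair of helices, 4 SNAREs and Snap91 were detected. Snap23, found in most tissues, was at 311 and 170 CPM. Snap25, the form of neurons and endocrine cells, was at 59.0 and 104 CPM. Snap23 exceeded Snap25 per kb of exon in both libraries, by 4.27-fold and 1.32-fold in replicates 1 and 2. The gap was wide in replicate 1 and narrow in replicate 2, since Snap23 was lower and Snap25 higher there. Snap47 was at 60.3 and 49.2 CPM and Snap29, a SNARE of internal membranes, at 49.2 and 54.5 CPM, both nearly alike in the libraries. Snap29 overlaps Pi4ka on the opposite strand. Snap91 was at 3.46 and 11.7 CPM.

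On the vesicle side, 5 of 7 VAMPs were detected. Vamp3, which sits on recycling vesicles, was at 325 and 277 CPM, and Vamp2, the VAMP of synaptic vesicles and insulin granules, at 178 and 121 CPM. Compared per kb of exon, Vamp3 was above Vamp2 by 2.43-fold and 3.07-fold, and Vamp2 was above Vamp8, a VAMP of endosomes and of exocrine and endocrine granules, by 2.26-fold and 1.85-fold. That order, Vamp3 over Vamp2 over Vamp8, held in both libraries with non-overlapping ranges. Vamp8 was at 64.5 and 53.2 CPM and Vamp4, which cycles between the Golgi and endosomes, at 54.4 and 71.7 CPM. Vamp1, a form of spinal neurons, was at 6.67 and 1.07 CPM. Vamp5 had 7 and 17 reads. Vamp7 is listed with no read, but it has no entry in the annotation used here for exon lengths. It may not have been counted, and its level is unknown.

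**Figure D2:**
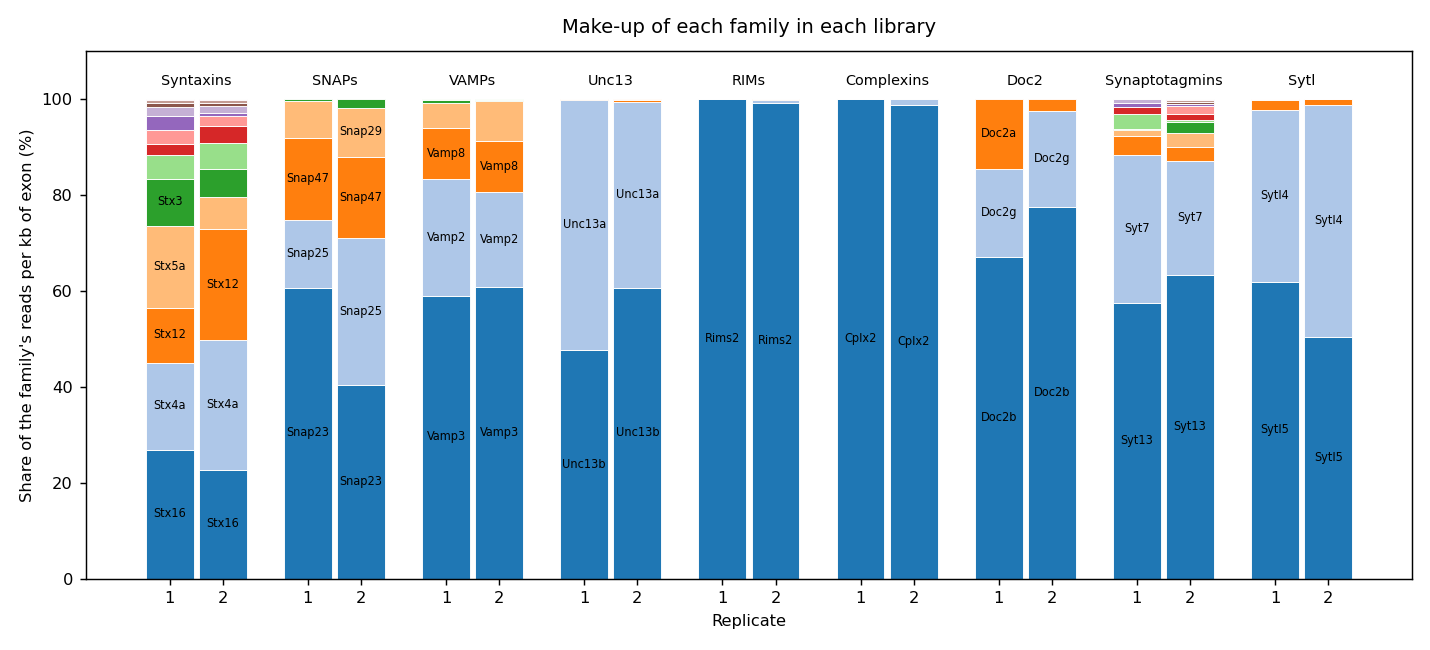
Share of each family's summed reads per kb of exon held by each gene, in percent, with a bar for replicates 1 and 2 of each family. The syntaxin-binding family is not drawn. Genes of at least 9% of a bar are named, and Vamp7, which has no read and no exon length here, is left out. Cplx2 and Rims2 fill 98.7% or more of their bars, Syt13 57.4% and 63.4% of the synaptotagmins and Vamp3 59.0% and 60.7% of the VAMPs.

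All 7 syntaxin-binding genes were detected. Stxbp2, which chaperones syntaxins into fusion complexes, was at 172 and 165 CPM, nearly level in the libraries. Stxbp3a, a relative with the same role, was at 25.9 and 33.0 CPM. Of the 25-base words of Stxbp3a, 83.6% were its own and a pseudogene shared most of the rest, so its count is uncertain. The tomosyns, which bind the target SNAREs in place of a VAMP and restrain release, were among the higher genes: Stxbp5l was at 290 and 269 CPM and Stxbp5 at 97.1 and 164 CPM. Stxbp4, a partner of Stx4a, was at 138 and 60.2 CPM and Stxbp6 at 15.4 and 10.9 CPM.

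Genes that prime and place granules were each represented by particular paralogs. Unc13b and Unc13a, the priming factors, were at 180 and 192 CPM and at 116 and 71.8 CPM. Per kb of exon Unc13a was 1.10-fold above Unc13b in replicate 1 and Unc13b was 1.57-fold above Unc13a in replicate 2. No order per kb was thus common to both, while by CPM Unc13b was the higher in each, so the order depends on the exon lengths used. Unc13c, known from the cerebellum, had 0 and 3 reads, and Unc13d, known from blood cells, 1 and 4. Unc13a shares exons with Colgalt1 on the opposite strand, and without a stated strand setting its count may hold reads of that gene.

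Rims2, a Rab3-binding scaffold of the release site, stood alone in its family. Replicate 1 had 277 CPM (95% interval 268 to 286, by the same method) and replicate 2 had 103 CPM (97.0 to 109). Rims1 had 0 and 3 reads, Rims3 0 and 6, and Rims4 none. Cplx2 was likewise the complexin of these cells, at 429 and 451 CPM, with Cplx1 at 0 and 31 reads, Cplx3 at 0 and 1, and Cplx4 at none. Cplx2 was close in the libraries, while Rims2 was 2.70-fold higher in replicate 1.

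Doc2b, a high-affinity calcium sensor with a role in insulin release, was at 113 and 111 CPM. Doc2a was at 14.2 and 2.07 CPM, and per kb of exon Doc2b was above it by 4.61-fold and 31.2-fold in replicates 1 and 2. Doc2g was at 10.4 and 9.67 CPM. Doc2b did not differ between the libraries beyond counting error (exact binomial test, adjusted p = 0.72). The levels of Doc2a and Doc2g are uncertain, since 60.5% and 44.5% of their words were their own. Doc2a overlaps Ino80e on the opposite strand and Doc2g a gene on its own strand.

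The synaptotagmins were led by Syt13 and Syt7. Syt13 was at 595 and 969 CPM, rank 155 of all symbols in replicate 1 and rank 64 in replicate 2. Syt7, a slow calcium sensor of high affinity that acts in islet hormone release, was at 614 and 694 CPM, at ranks 141 and 114. By CPM the order of these genes differed between the libraries, but per kb of exon Syt13 was above Syt7 by 1.86-fold and 2.67-fold. Together they left little to the other 15 members: Syt13 made up 57.4% and 63.4%, and Syt7 31.0% and 23.8%, of the family's reads per kb.

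The other calcium-binding synaptotagmins were low, including the fast sensors of synapses. Syt5 was at 19.2 and 20.3 CPM, Syt9 at 3.54 and 36.0 CPM and Syt1 at 10.8 and 6.12 CPM. Syt7 was, per kb of exon, above Syt1 by 38.2-fold and 76.2-fold and above Syt9 by 92.1-fold and 10.2-fold. Syt3 and Syt2 had no read in replicate 1, but 235 and 128 reads in replicate 2, or 19.4 and 10.6 CPM. Syt6 and Syt10 had 0 reads in replicate 1 and 1 in replicate 2. In all, 4 of 8 calcium-binding members and 5 of 9 others reached 1 CPM in both libraries.

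Among the remaining synaptotagmins, which do not bind calcium or do so weakly, Syt11 was nearly level in the libraries, at 23.2 and 23.6 CPM. Syt13 was above Syt11 per kb of exon by 35.3-fold and 56.2-fold. Syt16 was at 66.4 and 16.4 CPM, Syt14 at 17.9 and 4.38 CPM and Syt17 at 11.3 and 41.5 CPM. Syt16 and Syt14 were thus high in replicate 1, and Syt17 in replicate 2. Syt12 and Syt4 had no read in replicate 1 and 60 and 47 in replicate 2. Syt4 is a synaptotagmin of mature beta cells. Both overlap a gene on the opposite strand, as do Syt7, Syt16, Syt6 and Doc2b. Syt8 had 3 and 0 reads and Syt15 none.

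Sytl4 and Sytl5, which bind Rab27 on granules, carried the synaptotagmin-like family. Sytl4, known as granuphilin, docks insulin granules at the plasma membrane and was at 159 and 296 CPM. Sytl5 was at 125 and 140 CPM. Per kb of exon Sytl5 was the higher in each library, at 54.4 and 61.0 against 31.6 and 58.7 CPM per kb, with overlapping ranges. Sytl1 was at 3.62 and 2.56 CPM. Sytl2 had 4 and 3 reads and Sytl3, which overlaps Ezr on the opposite strand, had none.

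**Figure D3:**
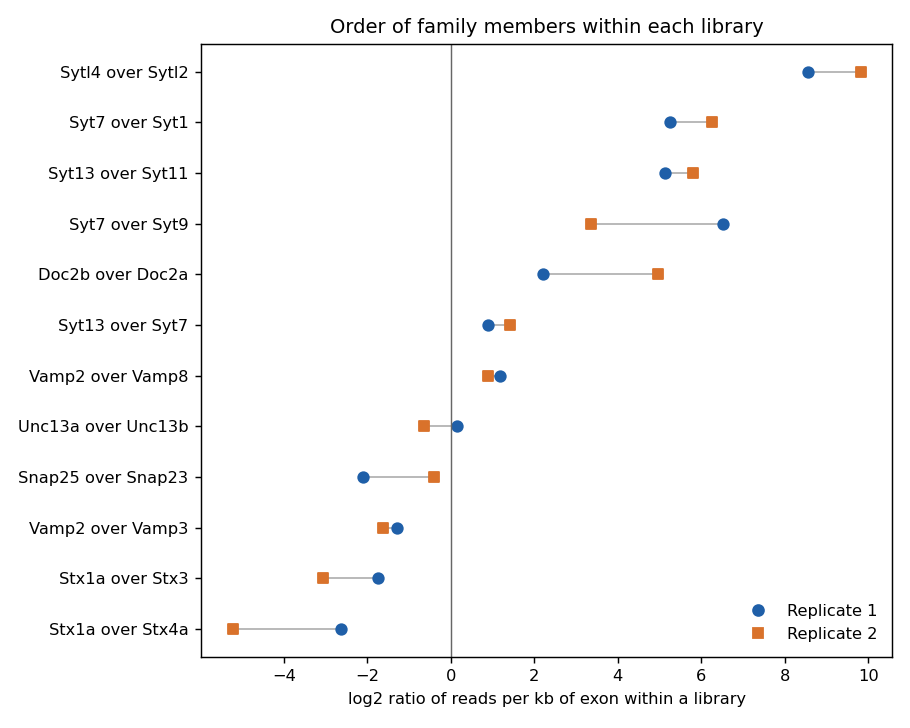
Log2 ratio of reads per kb of exon between members of the same family within each library, with circles for replicate 1 and squares for replicate 2. The line at 0 marks equal levels. Unc13a over Unc13b crosses that line between the libraries, and the other 11 pairs stay on one side of it.

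Of the 14 pairs of family members compared per kb of exon, 13 had the same order in both libraries, 9 with the first gene higher and 4 with the second. Snap23 over Snap25, Vamp3 over Vamp2, and Stx4a and Stx3 over Stx1a were those 4. The pairs were chosen with earlier results of these data known, so the number with a shared order is not support for any order. With 2 libraries no exact permutation test of an order can give a p below 0.5, so these orders are values of the samples and not tests. For Rims2 over Rims1 and Cplx2 over Cplx1, the second gene had no read in replicate 1, and no ratio was formed there.

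Other genes of the fusion and release machinery, named outside the rule, were mostly detected as well. Of 62 listed, 53 reached 1 CPM in both libraries, or 85.5%, beside the 69.0% of the exocytosis genes and 45.7% of all symbols, and 10 lay at 100 CPM or above on average. Pclo, a scaffold of the release site, was at 1007 and 916 CPM, Cadps, which primes dense-core granules, at 393 and 488 CPM, and Rimbp2, which links RIMs to calcium channels, at 286 and 265 CPM. Nsf, the ATPase that takes spent SNARE complexes apart, was at 182 and 141 CPM. Ppfia1, Sec22b and Syp were at 195 ± 75.1, 179 ± 104 and 170 ± 102 CPM (SD, n = 2). Erc1, Vps33a and Rph3al, an effector of Rab3 and Rab27, were at 130 ± 3.26, 108 ± 31.3 and 103 ± 38.6 CPM. Mlph and Otof had no read in either library.

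The spread between the libraries was smaller for the abundant members than for the scarce ones, as it was among all genes. Each gene's reads in replicates 1 and 2 were set against each other by an exact binomial test with Benjamini-Hochberg adjustment over 13416 genes with at least 10 reads, 55 of them exocytosis genes. Of those 55, 43 differed beyond counting error, 22 toward replicate 1 and 21 toward replicate 2. Among all genes tested 85.5% differed, 41.5% toward replicate 1 and 43.9% toward replicate 2, so a call by this test does not set a gene apart. The median log2 ratio, replicate 2 over replicate 1, was -0.023 for the exocytosis genes and 0.037 for all genes tested.

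A further 2-fold limit left 17 of the 55, or 30.9%, against 47.7% of all genes tested. Of these 8 were higher in replicate 1 and 9 in replicate 2, against 22.1% and 25.5% of all genes. Among members at 100 CPM or above on average it left 3 of 20 (Stx12, Stx5a and Rims2), against 11.9% of all genes of that level. It left 6 of 21 from 10 to 100 CPM and 8 of 13 from 1 to 10 CPM, against 42.9% and 73.9%. Of the 59 partner genes tested 51 differed beyond counting error, 23 toward replicate 1 and 28 toward replicate 2, and 19 of these by over 2-fold, 5 toward replicate 1 and 14 toward replicate 2.

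**Figure D4:**
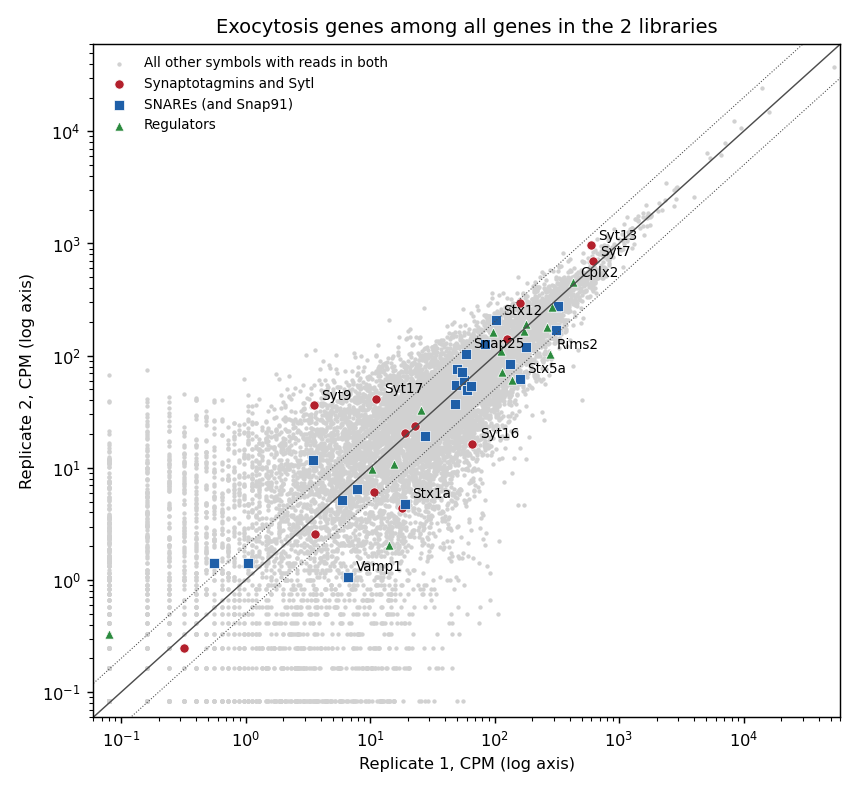
CPM in replicate 2 against CPM in replicate 1, both on log axes, for genes with reads in both libraries. Grey points are all other symbols, the solid line marks equal levels and the dotted lines a 2-fold difference. Syt13, Syt7 and Cplx2 lie inside the 2-fold lines, and Syt9, Syt17, Syt16 and Stx1a outside them.

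Among members at 10 CPM or above on average, the log2 ratios toward replicate 2 were greatest for Syt9 (3.29), Syt17 (1.87), Stx12 (1.03), Sytl4 (0.89) and Snap25 (0.82). Those toward replicate 1 were greatest for Syt16 (-2.01), Syt14 (-1.99), Stx1a (-1.95), Rims2 (-1.43) and Stx5a (-1.34). The summed markers of every cell type listed were also higher in replicate 1, as given above, by little for endocrine and duct cells. Within the lists some genes went the other way. Of the endocrine list Chgb (5381 and 5786 CPM), Chga and Pax6 were higher in replicate 2, and the others in replicate 1. Krt7 and Cela1 were also higher in replicate 2, as was Ednrb, at 0 and 11 reads. The part of other cell types in the ratios of the members was not tested.

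Members with at least 10 reads in a single library all had them in replicate 2. Syt3, Syt2, Syt12, Syt4 and Cplx1 had no read in replicate 1 and at least 10 in replicate 2, which is 5 of 55 tested, against 5.65% of all genes tested. No member had the opposite pattern, which 3.28% of all genes tested showed. For Syt3 the level in replicate 2 was at least 80.6-fold above the limit of 3 counts in replicate 1, for Syt2 at least 43.9-fold, and for Syt12, Syt4 and Cplx1 at least 20.6-fold, 16.1-fold and 10.6-fold. These bounds cover counting error only.

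Promoters were looked at for what the members share beyond their names. RefSeq sequences on GRCm38.p6, from 250 bases before to 50 after a start, matched 52 of the 71 genes with 63 promoters. Of the 20 genes at 100 CPM or above on average, 13 were matched. Among the genes without a match were Syt13, Syt7, Vamp3, Vamp2, Rims2, Doc2b, Snap25 and Syt4, so the promoter results do not cover them. The CG dinucleotide, dense in promoters of genes used by many tissues, occurred 19 times in the median promoter of the exocytosis genes, against 7 times in the median of all 32851 promoters. The median was also 19 for the 44 promoters of genes detected in both libraries and for the 19 promoters of the other members. CG content thus did not differ in its median between transcribed and scarcely transcribed members.

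Over the whole window the promoters of the exocytosis genes held from 0 to 49 CG. The 250 bases before the start are shown for 6 genes, chosen after their values were seen so that low and high CG counts appear among both abundant and near-silent members. They are given 5′ to 3′ on the strand of the gene with CG in capitals. Sytl5 (chrX:9885371-9885620, plus strand), Cplx2 (chr13:54302306-54302555, plus strand), Snap23 (chr2:120567421-120567670, plus strand) and Stx12 (chr4:132884459-132884708, minus strand) were abundant, with 1, 7, 17 and 30 CG in these bases. Sytl3 (chr17:6658809-6659058, plus strand), with no read, had 3, and Syt10 (chr15:89841861-89842110, minus strand), a calcium-binding synaptotagmin with 0 and 1 reads, had 32.
Sytl5: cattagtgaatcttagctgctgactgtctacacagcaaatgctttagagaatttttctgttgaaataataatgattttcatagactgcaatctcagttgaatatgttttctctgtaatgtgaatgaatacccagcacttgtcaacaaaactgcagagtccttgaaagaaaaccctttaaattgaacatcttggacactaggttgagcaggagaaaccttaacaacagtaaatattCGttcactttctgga
Cplx2: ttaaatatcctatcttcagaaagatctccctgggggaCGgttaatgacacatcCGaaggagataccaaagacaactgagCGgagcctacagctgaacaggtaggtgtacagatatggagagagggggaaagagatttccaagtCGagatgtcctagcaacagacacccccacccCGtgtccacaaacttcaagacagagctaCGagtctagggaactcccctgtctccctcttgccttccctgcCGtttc
Snap23: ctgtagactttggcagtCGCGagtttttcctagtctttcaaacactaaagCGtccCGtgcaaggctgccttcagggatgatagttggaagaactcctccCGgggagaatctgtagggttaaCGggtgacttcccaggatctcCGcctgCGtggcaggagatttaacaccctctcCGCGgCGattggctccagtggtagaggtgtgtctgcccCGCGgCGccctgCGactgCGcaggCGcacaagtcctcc
Stx12: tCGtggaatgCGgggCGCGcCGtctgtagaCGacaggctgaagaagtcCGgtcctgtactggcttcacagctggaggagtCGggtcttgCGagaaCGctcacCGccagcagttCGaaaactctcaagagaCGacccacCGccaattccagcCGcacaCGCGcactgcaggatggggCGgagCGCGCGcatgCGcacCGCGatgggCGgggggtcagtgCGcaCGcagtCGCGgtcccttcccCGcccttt
Sytl3: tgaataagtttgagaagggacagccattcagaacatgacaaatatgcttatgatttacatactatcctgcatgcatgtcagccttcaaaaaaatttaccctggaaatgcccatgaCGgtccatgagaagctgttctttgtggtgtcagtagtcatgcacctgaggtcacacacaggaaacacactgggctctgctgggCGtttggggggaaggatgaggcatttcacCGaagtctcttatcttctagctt
Syt10: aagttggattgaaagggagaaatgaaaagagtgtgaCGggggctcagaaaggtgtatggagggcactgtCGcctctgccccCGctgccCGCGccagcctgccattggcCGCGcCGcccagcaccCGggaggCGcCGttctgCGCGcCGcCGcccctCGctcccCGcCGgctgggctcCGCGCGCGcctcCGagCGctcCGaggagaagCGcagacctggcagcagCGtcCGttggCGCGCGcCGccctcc

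A pair of motifs was searched for on both strands of all promoters. Genes without a matched promoter, Snap25 and Syt4 among them, were not searched. The letters CAGCACC followed after 2 bases by GGA are the core of the RE1 element, the site of the REST repressor that keeps many neuronal genes silent outside neurons. This core was found in 1 of the 63 promoters, that of Syt10, and in 0.186% of all promoters. The Syt10 match lies 133 to 122 bases before the start, at chr15:89841973-89842002 with 9 bases to each side, and is given in capitals.
Syt10: cgcgccgccCAGCACCCGGGAggcgccgtt
The E-box CAGATG, a form bound by Neurog3 and its relatives, was found in 6 of the 63 promoters, those of Doc2g, Rims3, Snap91, Stx19, Stxbp2 and Vamp5, or 9.52%, against 17.2% of all promoters. Of these, Stxbp2 had a mean of at least 100 CPM. A match describes the letters of the window and is not a site shown to be used.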

How the data were processed

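RNA-seq was measured in 2 samples of sorted cells. For each sample the authors deposited 1 file of raw counts by gene symbol, per the file headers and the whole-number values. Per the submitters' processing notes, the build was mm9 and the tools included TopHat2 2.0.4, Cufflinks 2.0.2, DESeq, cutadapt and FastQC. The counter, annotation, strand setting and handling of multi-mapped reads are not stated there.

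Counts were scaled to CPM with TMM factors (edgeR 4.0.16, R 4.3.3). A gene at 1 CPM or more in both libraries was called detected. Log2 ratios used a prior count of 2. Reads per gene were compared by a two-sided exact binomial test (the smaller tail doubled) given the scaled library sizes, adjusted by Benjamini-Hochberg and called at 0.05 (SciPy 1.17.1). It compares these libraries, not conditions. Tested on simulated Poisson counts for 13416 genes, it called 83 of the 100 with a 2-fold change, 93 of the 100 with a 4-fold change and 15 of the 13216 without change. The simulated counts hold counting error only, as the test assumes, so these rates do not cover the spread between samples. Intervals (exact, 95%) and the limit of 3 counts cover counting error only, since reads are not independent molecules.

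Exon lengths (70 of 71 genes, merged exons of the basic transcript set) and 25-base words come from GENCODE M21, and promoters from RefSeq. Both are on GRCm38, not mm9, and were matched by symbol. Stxbp3a was matched to Stxbp3.

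The members, lists and gene pairs were chosen with earlier results of these data known. Values are given for members with a mean of at least 100 CPM, both genes of each pair, the 5 greatest log2 ratios each way from 10 CPM, and the highest member of each family. Syt12, Syt2, Syt3 and Syt4 and other members outside this rule are named so that members are accounted for; 2 of the 71 enter the counts and sums but are not reported here by name, nor are the pairs that hold them. Of the marker lists, the highest member and some without reads are named. Alternatives were other scalings (column totals, DESeq2 1.42.0 size factors, Rn45s left out), limits, filters, prior counts and lengths, and each replicate alone. Those on family shares and on members with exons of their own were chosen after seeing the data.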

Additional observations from a re-analysis of the deposited data

How the results depend on the processing

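No paired analysis was possible because the series holds a single group. The number of members detected was 49 with each scaling tried, 50 at 0.5 CPM, 41 at 5 CPM, and from 49 to 55 in each replicate alone. The number differing between the libraries ranged from 42 to 45 and the number also differing over 2-fold from 17 to 19 under the alternative scalings, filter and prior count. In a further alternative, members whose exons overlap another gene were left out, with Stxbp3a for its shared words and Vamp7 without an annotation entry. Of the 56 members that remained, 40 were detected. Of the 44 of them tested, 36 (81.8%) differed and 13 (29.5%) did so over 2-fold. Among all genes tested these shares were 85.5% and 47.7%. The median CPM of members was 20.1 with Rn45s left out of the totals, since less is then divided by, and 53.8 over members with at least 10 reads, since the scarce ones are dropped, against 19.2 as a mean of both libraries. The median log2 ratio of members was -0.023 and became 0.074 without a filter on counts. This adds members with fewer than 10 reads, most of which had more reads in replicate 2. Why they did so was not tested.

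The same order in both libraries was found for 13 pairs with exon lengths from the full annotation or with a pseudocount of 1 read. It was also found for 13 pairs by CPM with no length, 12 of which were among those 13, with the same direction, while Syt13 and Syt7 lost their order. The mean log2 ratio of Unc13a over Unc13b, -0.26, was from -0.65 to 0.13 in single libraries. With no length it was -1.03, and Unc13b was the higher in both libraries. The share of Syt13 among synaptotagmins was 48.0% by reads with no length and 62.5% with the full annotation. Sytl5 fell from 56.1% to 37.7% of its family with no length, below Sytl4. Levels under 10 CPM rest on few reads in each library.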
